A study of Arabidopsis thaliana with 8 samples.

Results

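A set of 136 Arabidopsis thaliana genes carried many m6A peaks each, and the peaks of these genes were described gene by gene, by their place along the transcript and between a demethylase mutant and wild type. m6A is N6-methyladenosine, a methylated adenosine within messenger RNA. A gene belonged to the set where the authors listed at least 6 peaks for it in the mutant or in wild type, so the number of listed peaks chose the members and these numbers are given as a description. The members made up 0.951% of the 14304 genes with a listed peak, and they held 867 of the 20696 mutant peaks and 709 of the 20521 wild-type peaks. Seedlings aged 14 days of the Columbia-0 ecotype were sampled whole, homozygous for the lesion atalkbh10b (atalkbh10b -/-) or wild type, and both genotypes shared ecotype, age and tissue. Each genotype had 2 libraries of RNA bound by an m6A antibody and 2 input libraries, 8 in all, described by the labels as biological replicates. For each genotype the authors deposited a single peak list, in which every peak has a log2 enrichment per replicate, and these enrichments are the authors' own values. The mutant is 1 allele, and a whole seedling mixes all its cell types. The depth of the libraries is unknown, since no counts were used.

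In plant messenger RNA, m6A is written by a methyltransferase complex, read by proteins with a YTH domain and removed by demethylases of the AlkB family, to which ALKBH10B belongs. The mark is known to be concentrated around the stop codon and in the 3′ untranslated region of transcripts, and to act on their stability, processing and translation. A pull-down peak is a stretch of transcript over-represented among the antibody-bound fragments relative to input, so its height depends on methylation and not directly on the amount of transcript. A gene whose transcript is scarce can still be missing from a list. In whole seedlings, a change in which cells hold a transcript and a change in its methylation within a cell cannot be told apart.

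The mutant list supplied more of the members. In it 108 genes had at least 6 peaks, in the wild-type list 67 did and in both lists 39 did, which left 69 genes that reached 6 in the mutant alone and 28 that did so in wild type alone. The median member had 6 peaks in the mutant and 5 in wild type. More peaks were listed in the mutant for 84 members and more in wild type for 37, with 15 equal, whereas over all listed genes the shares were 27.2% with more in the mutant and 27.2% with more in wild type. Because a high number in either list admitted a gene, nothing is read from this count. The fuller list stood at exactly 6 peaks for 71 members, and a further 193 genes just missed the set with 5. The median log2 enrichment (mean of both replicates) of the genes at 6 was 2.07 in the mutant and 2.16 in wild type, and of the genes at 5 it was 1.92 in the mutant and 1.82 in wild type.

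**Figure D1:**
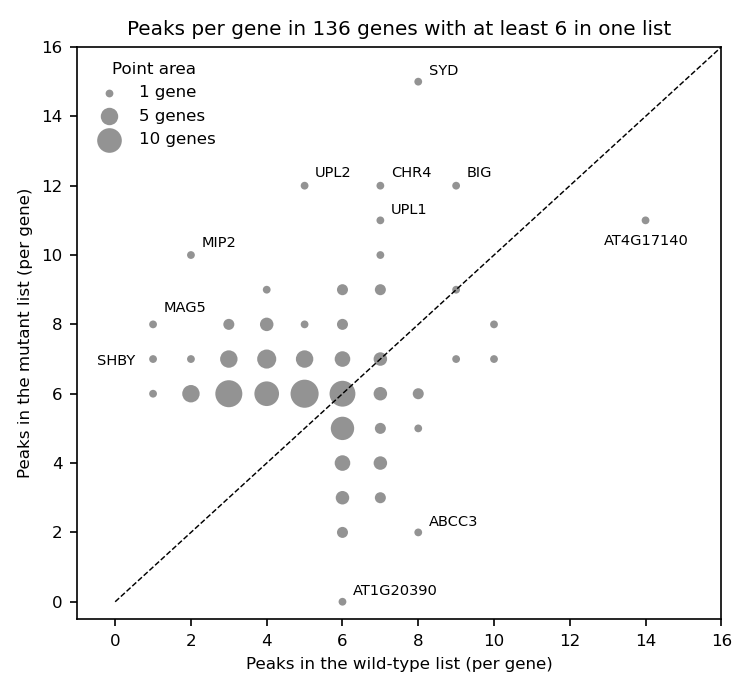
Number of listed peaks per gene in the mutant (vertical axis) and in wild type (horizontal axis) for the 136 genes, with point area giving how many genes share a position and the dashed line marking equal numbers. SYD has 15 mutant and 8 wild-type peaks, AT4G17140 11 mutant and 14 wild-type peaks, and 84 genes lie above the line.

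Members tended to have listed peaks far along their gene models, a position that is not the length of the transcript. The farthest listed peak of a member ended a median of 5494 bases into its gene model, from 2095 to 16294, against 1459 over all listed genes. Of the 178 genes whose farthest peak ended at base 5000 or beyond, 85 were members, and the 93 others had a median of 4 peaks in their fuller list. A gene with more listed peaks has more chances of a far one, so this position is not independent of the rule. The members were spread over the genome, with 39 genes on chromosome 1, 25 on chromosome 2, 27 on chromosome 3, 16 on chromosome 4, 26 on chromosome 5 and 3 in the plastid. Protein-coding genes numbered 131. Of the members, 36 overlap another annotated gene, and since the library kit named in the labels does not mark strand, peaks in such genes cannot be told apart from those of the overlapping gene.

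The largest number of peaks belonged to SYD (AT2G28290), which encodes a SWI/SNF chromatin remodelling ATPase, with 15 mutant and 8 wild-type peaks. BIG (AT3G02260), a giant protein required for auxin transport, had 12 mutant and 9 wild-type peaks, and CHR4 (AT5G44800), a remodelling ATPase of the CHD kind, had 12 mutant and 7 wild-type peaks. The ubiquitin ligase genes UPL2 (AT1G70320) and UPL1 (AT1G55860) are close copies of each other, so their peaks are uncertain where reads match both. UPL2 had 12 mutant and 5 wild-type peaks, and UPL1 had 11 mutant and 7 wild-type peaks. ILA (AT1G64790), a homologue of the translation regulator GCN1, had 10 mutant and 7 wild-type peaks. The remaining genes among the 10 fullest were AT4G17140 (11 mutant and 14 wild-type peaks), AT3G50370 (8 mutant and 10 wild-type peaks), AT5G23110 (7 mutant and 10 wild-type peaks) and MIP2.

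The peaks of a member were often close neighbours. The median gap between consecutive peaks was 516 bases in the mutant and 687 bases in wild type. Gaps of 100 bases or less made up 140 of 732 in the mutant (19.1%) and 81 of 573 in wild type (14.1%), and in 50 mutant and 30 wild-type cases the next peak began at the base after the last. The median peak was 157 bases wide in the mutant and 158 in wild type, as in the lists as a whole (157 in each). All listed peaks of a member together covered a median of 19.4% of the bases up to its farthest listed end in the mutant and 15.1% in wild type. When neighbours up to 100 bases apart were joined, 74 genes reached 6 peaks. When each counted peak had to show a log2 enrichment of 1 or more in both replicates, 23 did.

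**Figure D2:**
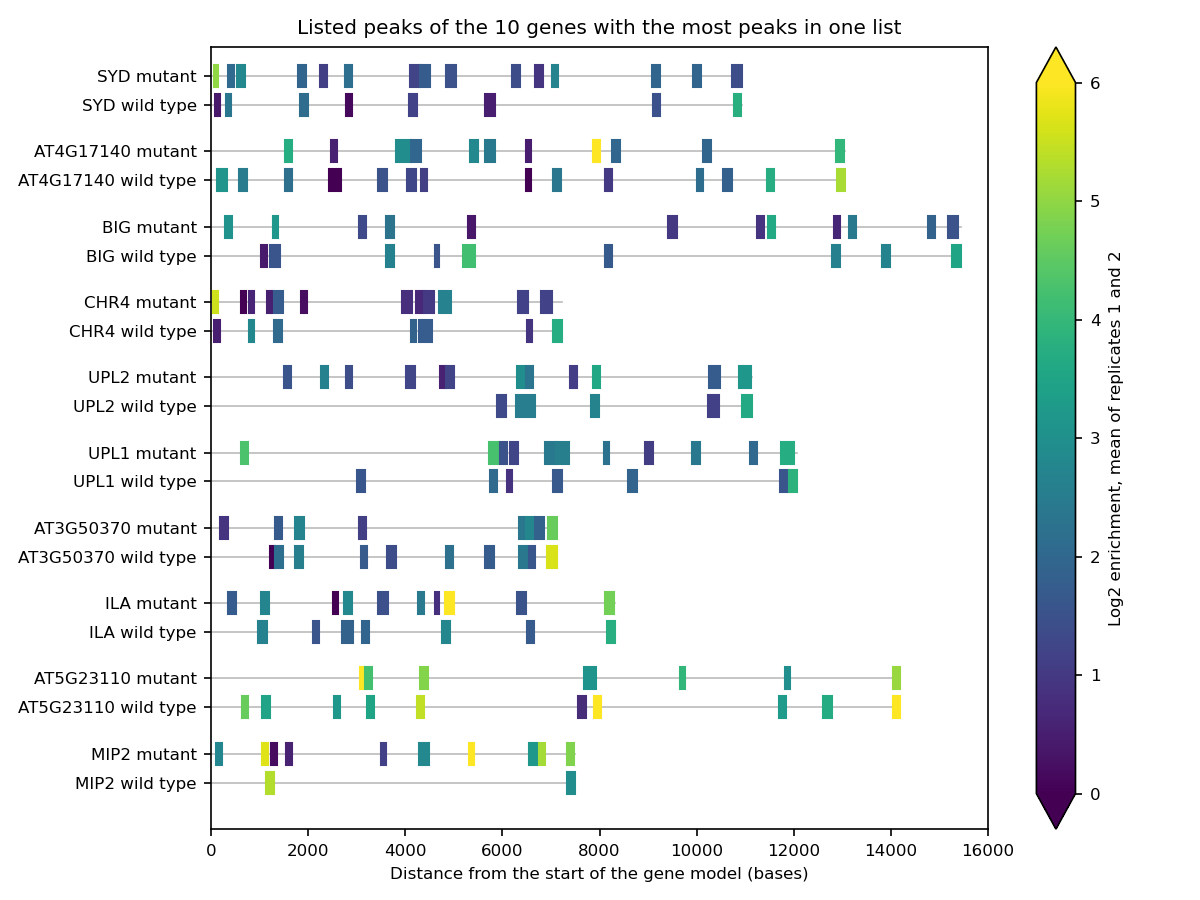
Listed peaks of the 10 genes with the most peaks in 1 list, drawn to scale along the gene model in bases, with the mutant row above the wild-type row of each gene and colour giving the mean log2 enrichment of replicates 1 and 2. In SYD, 15 mutant peaks are spread from base 48 to base 10935, and 7 of them overlap a wild-type peak.

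SYD, the gene with the most peaks in a list, is given as an example and not as a typical member. By mean its highest mutant peak was the first, whereas over all members last peaks had the highest medians. Its first mutant peak, at bases 48 to 147, had log2 enrichments of 8.43 and 1.57 in the mutant replicates, and the overlapping wild-type peak had 1.85 and -1.07 in the wild-type replicates. Its last mutant peak, at bases 10721 to 10935, had 0.47 and 2.33 in the mutant, against 4.07 and 3.48 at bases 10760 to 10916 in wild type. The first position had 1 high mutant replicate with the other mutant value below the higher wild-type value, so the groups overlapped there, whereas at the last position both mutant values lay below both wild-type values. Of its 15 mutant peaks, 8 had both replicates at a log2 enrichment of 1 or more, and 4 of its 8 wild-type peaks did. In CHR4, 2 of 12 mutant peaks and 4 of 7 wild-type peaks did.

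The largest surplus of mutant peaks lay in MIP2 (AT5G24350), a component of a tethering complex in traffic between endoplasmic reticulum and Golgi, with 10 mutant and 2 wild-type peaks. Of its 10 mutant peaks, 1 had close and high values, 7.83 and 7.80 at bases 5311 to 5417, and no wild-type peak overlapped it. Its last peak was listed in both genotypes, with 3.89 and 5.82 in the mutant and 3.42 and 2.46 in wild type. The replicates thus lay further apart in the mutant than in wild type at the shared end, and all 4 values were above 2. The other shared peak of MIP2 was lower in the mutant, and the mean difference over its 2 pairs was -1.61. MAG5 (AT5G47480), which acts at the exit sites of the endoplasmic reticulum, had 8 mutant peaks and 1 wild-type peak, and its 8 mutant peaks made 3 when neighbours were joined. Its single wild-type peak, at bases 4047 to 4251, had 4.56 and 3.06 in wild type, and the overlapping mutant peak had 1.91 and 2.89. SHBY (AT5G24740), known from root growth, had 7 mutant peaks and 1 wild-type peak, again at the end of the gene model, with 3.61 and 3.43 in the mutant and 1.16 and 7.62 in wild type. The lipid kinase gene ATPI4K ALPHA (AT1G49340) had 8 mutant and 3 wild-type peaks.

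In the other direction, ABCC3 (AT3G13080), a vacuolar transporter gene, had 2 mutant and 8 wild-type peaks. Its wild-type peaks repeated poorly: the peak at bases 3711 to 3826 had 5.07 in replicate 1 and -7.29 in replicate 2, while that at bases 1539 to 1650 had 4.85 and 6.87. AT1G20390, annotated as a pseudogene, had 6 wild-type peaks and was the 1 member missing from the mutant list. ATRX (AT1G08600), a remodelling protein for histone H3.3, and TAF2 (AT1G73960), a subunit of the general transcription factor TFIID, each had 2 mutant and 6 wild-type peaks. TPP2 (AT4G20850), a giant peptidase gene, and the ubiquitin ligase gene UPL4 (AT5G02880) each had 3 mutant and 7 wild-type peaks. With 1 list per genotype, no such difference in number has a replicate of its own.

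Member peaks had medians of 2.25 and 1.79 in mutant replicates 1 and 2 and of 2.28 and 1.91 in wild-type replicates 1 and 2, against 2.48 and 2.28 in the mutant and 2.42 and 2.44 in wild type over all peaks. The median difference between the replicates of a peak was 1.62 in the mutant and 1.37 in wild type, on the log2 scale. Over all peaks it was 1.79 in the mutant and 1.46 in wild type. Both replicates reached 1 in 495 of the mutant peaks (57.1%, exact binomial 95% interval 53.7 to 60.4, which here and below covers counting error only), against a background of 64.6% over all mutant peaks. In wild type they did so in 442 peaks (62.3%, interval 58.7 to 65.9), against a background of 68.2%. This is not particular to the members: in genes whose fuller list stood at 5 peaks the shares were 54.7% in the mutant and 56.2% in wild type, and peaks at the same place in other genes with at least 2 peaks, given below, had shares no higher than those of the members. At least 1 of the replicates reached 1 in 866 of the 867 mutant peaks and in all 709 wild-type peaks, so a peak low in both was hardly ever listed. Across member peaks, which share libraries, the rank correlation of replicate 1 with replicate 2 (Spearman) was 0.11 in the mutant (n = 867) and 0.15 in wild type (n = 709). Across all peaks it was 0.12 in the mutant and 0.22 in wild type.

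Within a gene, the order of the peaks in replicate 1 said little of their order in replicate 2. In the genes with 6 or more peaks, the median correlation of the replicates over the peaks of a gene (Spearman) was 0.05 in the mutant and 0.07 in wild type, and it was above 0 in 59 of 108 mutant genes and 38 of 67 wild-type genes.

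The last peak of a gene stood apart from the others. The last peak is the one farthest along the gene model, the first peak the one nearest its start, and the inner peaks lie between. Last peaks had medians of 3.24 and 3.43 in mutant replicates 1 and 2 (n = 135) and of 3.72 and 3.77 in wild-type replicates 1 and 2 (n = 133). First peaks had 2.39 and 1.78 in the mutant and 2.29 and 1.81 in wild type, and inner peaks 2.08 and 1.57 in the mutant (n = 597) and 2.03 and 1.63 in wild type (n = 440). In all 4 libraries the last peaks were thus the highest and the inner peaks the lowest. The rule counted peaks and did not use their place, but last peaks of other genes showed the same order, so it is not particular to these genes: in other genes with at least 2 peaks, last peaks had medians of 2.79 and 2.79 in the mutant and 2.90 and 3.05 in wild type, and inner peaks 2.03 and 1.46 in the mutant and 1.76 and 1.53 in wild type.

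**Figure D3:**
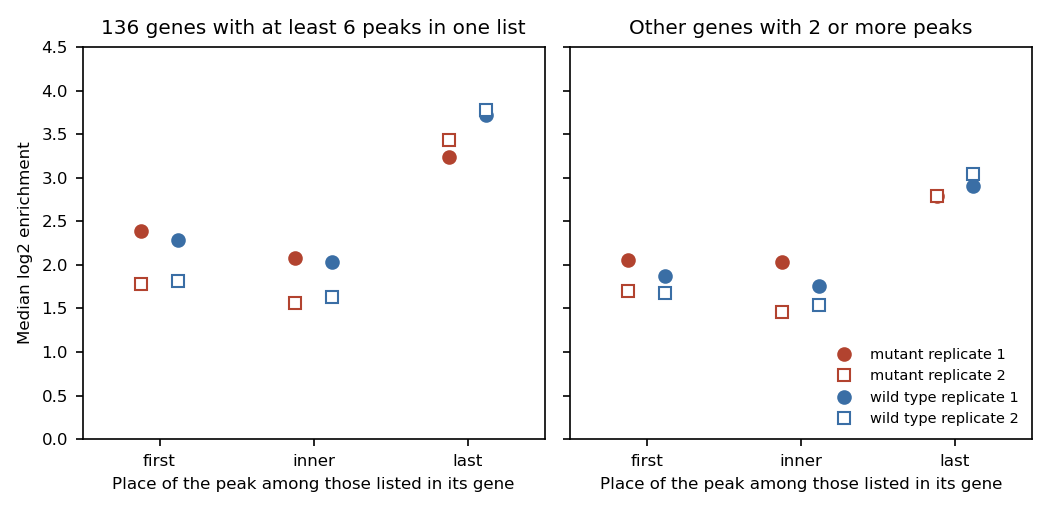
Median log2 enrichment of first, inner and last peaks in each of the 4 libraries (mutant to the left of wild type), for the 136 genes and for other genes with at least 2 peaks. Last peaks of the 136 genes lie at 3.24 and 3.43 in the mutant and at 3.72 and 3.77 in wild type, above first and inner peaks in every library.

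Gene by gene, the last peak exceeded the mean of the other peaks of its own transcript in 95 of 135 genes in mutant replicate 1 and in 110 in mutant replicate 2, and in 104 of 133 genes in wild-type replicate 1 and 118 in wild-type replicate 2. The median excess was 0.95 and 1.41 in the mutant replicates and 1.60 and 1.93 in the wild-type replicates, on the log2 scale. In other genes with at least 2 peaks it was 0.57 and 1.10 in the mutant and 1.06 and 1.28 in wild type. Counting the peak of highest mean in the genes with at least 3 peaks, it was the last one in 58 of 132 mutant genes, an inner one in 47 and the first in 27, and the last one in 96 of 126 wild-type genes, an inner one in 23 and the first in 7. If every peak of a gene had been equally likely to be its highest, the last would have been so in 16.5% of the mutant genes and 20.2% of the wild-type genes. By single replicates, the last peak was the highest in 41 (replicate 1) and 60 (replicate 2) of these mutant genes. In the wild-type genes these counts were 77 and 70, so the genotypes lay closer than by the means. No test of the genotypes was made on these counts, because the lists hold different numbers of peaks for the same genes.

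Last peaks were also the ones that repeated. Both replicates reached 1 in 88.9% of last peaks in the mutant and 91.7% in wild type, but in 49.9% of inner peaks in the mutant and 54.5% in wild type, and in 57.0% of first peaks in the mutant and 57.9% in wild type. In other genes with at least 2 peaks the shares were 73.5% in the mutant and 80.4% in wild type at last peaks, 49.7% in the mutant and 46.1% in wild type at inner peaks, and 52.9% in the mutant and 52.5% in wild type at first peaks. The correlation of the replicates across last peaks was 0.33 in the mutant (n = 135) and 0.42 in wild type (n = 133), and across inner peaks it was -0.03 in the mutant (n = 597) and -0.11 in wild type (n = 440). Exactly 1 replicate reached 1 in 42.8% of all member peaks in the mutant and 37.7% in wild type. Over all listed peaks the shares were 35.1% in the mutant and 31.4% in wild type. The part of this listing limit in the correlations was not tested. Last peaks were slightly wider, with medians of 170 bases in the mutant and 171 in wild type, against 155 for inner mutant peaks and 157 for inner wild-type peaks.

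**Figure D4:**
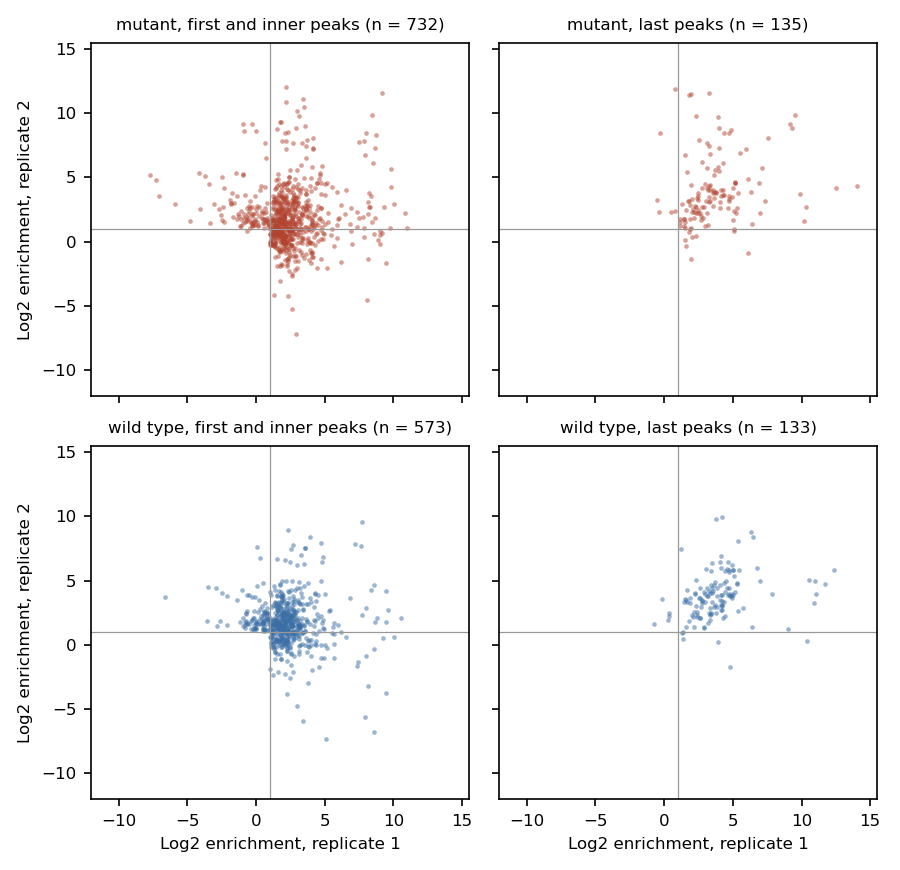
Log2 enrichment in replicate 1 (horizontal axis) and replicate 2 (vertical axis) of each member peak, with last peaks apart from all other peaks and mutant apart from wild type, and grey lines at a log2 enrichment of 1. Spearman's correlation is 0.33 for mutant last peaks and 0.42 for wild-type last peaks, and -0.02 for other mutant peaks and -0.08 for other wild-type peaks.

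The next comparison asked which positions were listed in both genotypes. A mutant peak had a partner where it overlapped a wild-type peak of the same gene by at least 1 base. This held for 492 of the 867 mutant peaks (56.7%, interval 53.4 to 60.1), against a background of 69.3% of all mutant peaks. It held for 491 of the 709 wild-type peaks (69.3%, interval 65.7 to 72.6), against a background of 69.4%. The share was thus lower among mutant peaks, in the list that also supplied more of the members, and a gene chosen for a high number in 1 list holds surplus peaks in that list by construction.

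Place divided the peaks more sharply than genotype did. Of the last peaks, 132 of 135 in the mutant (97.8%) and 128 of 133 in wild type (96.2%) had a partner. Of the inner peaks, 48.9% in the mutant and 62.3% in wild type did, and of the first peaks 50.4% in the mutant and 64.7% in wild type did. The last mutant peak and the last wild-type peak formed a pair in 124 of the 135 genes present in both lists. With the gene model up to its farthest listed end divided into 5 equal segments, the share of mutant peaks with a partner lay between 44.0% and 51.9% in all but the last segment and was 78.4% in the last. The share of wild-type peaks lay between 52.5% and 66.0% and was 85.9% in the last. In other genes with at least 2 peaks, 87.6% of last peaks in the mutant and 84.3% in wild type had a partner, while 47.7% of inner peaks in the mutant and 51.1% in wild type did.

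Enrichment was then compared between the genotypes at 463 pairs of overlapping peaks, each the other's largest overlap, in 135 of the members. The median difference, mutant minus wild type, was 0.01 on the log2 scale, against -0.02 over all 13875 pairs. Genotype means at least 1.5-fold higher in the mutant were found at 162 pairs (35.0%, against a background of 32.4%), and at least 1.5-fold lower at 137 (29.6%, against a background of 32.1%), with 164 between. This balance turned without either of 2 libraries. Without mutant replicate 1, 140 pairs were higher and 195 lower in the mutant (33.7% higher and 38.8% lower over all pairs). Without wild-type replicate 2, 162 were higher (35.0%) and 167 lower (36.1%), whereas over all pairs 36.0% were higher and 32.6% lower. At 58 pairs (12.5%, background 13.7%) the lower mutant value exceeded the higher wild-type value, and at 64 (13.8%, background 15%) the higher mutant value was under the lower wild-type value. With limma's moderated test and Benjamini-Hochberg adjustment over all pairs, 0 member pairs passed (background 0%), the smallest adjusted p being 0.9996. At an unadjusted p under 0.05 stood 13 member pairs, 7 higher and 6 lower, which is 2.81% against a background of 3.54%. These p-values measure only the spread between 2 libraries per genotype, and nothing states that the replicates were grown apart. The member shares differed little from those of all pairs, so none of these counts is a result about the members.

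At last peaks, pairs with lower mutant means outnumbered those with higher ones. Among the 130 pairs whose mutant peak was the last of its gene, 46 were at least 1.5-fold higher in the mutant (35.4%) and 55 lower (42.3%). The groups did not overlap at 20 pairs with higher (15.4%) and 35 with lower mutant values (26.9%). At last peaks of other genes with at least 2 peaks these shares were 12.3% and 18.2%, and over all pairs 13.7% and 15%. With any 1 library left out, 43 to 48 of these pairs were higher and 54 to 59 lower. Among the other 333 pairs, 116 were higher in the mutant (34.8%) and 82 lower (24.6%), but without mutant replicate 1 this turned to 95 higher and 136 lower. The median difference was -0.16 at last peaks and 0.07 elsewhere. Other genes with at least 2 peaks had medians of -0.16 at last peaks and 0.14 elsewhere and the same order of counts, with 36.8% of last peaks lower and 30.6% higher. The difference between last and other peaks was not tested. Of 124 members with at least 2 pairs, 22 had all differences of 1 sign. A gene with more pairs has more chances of mixed signs, and members had a median of 4 pairs. Among genes with exactly 3 pairs, 7 of 30 members (23.3%) had all differences of 1 sign, against 83 of 332 other genes (25.0%). With exactly 2 pairs, 9 of 27 members (33.3%) and 1054 of 2159 other genes (48.8%) did, and with 4 or more, 6 of 67 members (8.96%) and 6 of 38 other genes (15.8%). These differences were not tested. A total of 66 members had a pair at least 1.5-fold higher and another at least 1.5-fold lower. This count has no background share beside it, so nothing is read from it.

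Of the pairs at which all mutant values exceeded all wild-type values, the largest difference was at the first peak of FHY3 (AT3G22170), a transcription factor of phytochrome A signalling, with 9.84 and 5.65 in the mutant and -3.60 and 1.89 in wild type. AT1G15940 had close mutant values at bases 3061 to 3234, 9.16 and 9.12, against 0.36 and 2.46 in wild type, and AT1G22610 had 9.19 and 11.60 in the mutant against 3.44 and 2.69 in wild type. These mutant values stood far above the library medians, and at AT1G15940 the mutant replicates differed by less than the wild-type replicates. CALS3 (AT5G13000), a callose synthase that acts at plasmodesmata, had 12.48 and 4.19 in the mutant against 3.31 and 2.34 in wild type at its last peak, and its difference of 5.51 was 1.37 without mutant replicate 1. AT2G42270 had 7.50 and 7.77 in the mutant against 1.56 and 3.48 in wild type. CHR4 likewise rested on 1 library, with 1.80 and 9.28 in the mutant against -0.69 and 1.68 in wild type at its first peak, and its difference of 5.04 was 1.30 without mutant replicate 2. ROS1 (AT2G36490), a DNA glycosylase that removes DNA methylation, had 4.17 and 7.22 in the mutant against 0.51 and 1.69 in wild type at an inner peak, and FPA (AT2G43410), an RNA-binding protein of 3′ end formation and flowering, completed the 8.

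Lower mutant values were led by ATM1 (AT3G19960), a myosin gene, with 1.73 and 3.14 in the mutant and 6.35 and 8.81 in wild type. SAB (AT1G58250), which acts in cell expansion, had 1.91 and 1.74 in the mutant against 3.78 and 9.82 in wild type, and BIG had -1.07 and 1.79 in the mutant against 4.48 and 3.91 in wild type at bases 5291 to 5440 of the mutant list. At the SAB peak the difference of -4.97 was -1.95 without wild-type replicate 2, and at the BIG peak that of -3.83 was -2.40 without mutant replicate 1. BEN1 (AT3G43300), an exchange factor for ARF GTPases in endosomal traffic, had 2.49 and 3.23 in the mutant against 6.96 and 4.98 in wild type. MOR1 (AT2G35630), a microtubule-associated protein, had 2.33 and 2.69 in the mutant against 4.65 and 6.42 in wild type at its last peak. RLT2 (AT5G44180), a partner of remodelling ATPases, had 2.53 and 0.93 in the mutant against 3.24 and 7.03 in wild type, where its difference of -3.40 was -1.51 without wild-type replicate 2. SETH5 (AT4G00800) and AT5G15680 completed the 8, with log2 differences of -3.42 and -3.07, and the second was -1.69 without wild-type replicate 2. All 16 of these pairs were picked by the distance between their values, none passed with limma after adjustment (adjusted p = 0.9996), and their direction follows from the way they were picked.

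**Figure D5:**
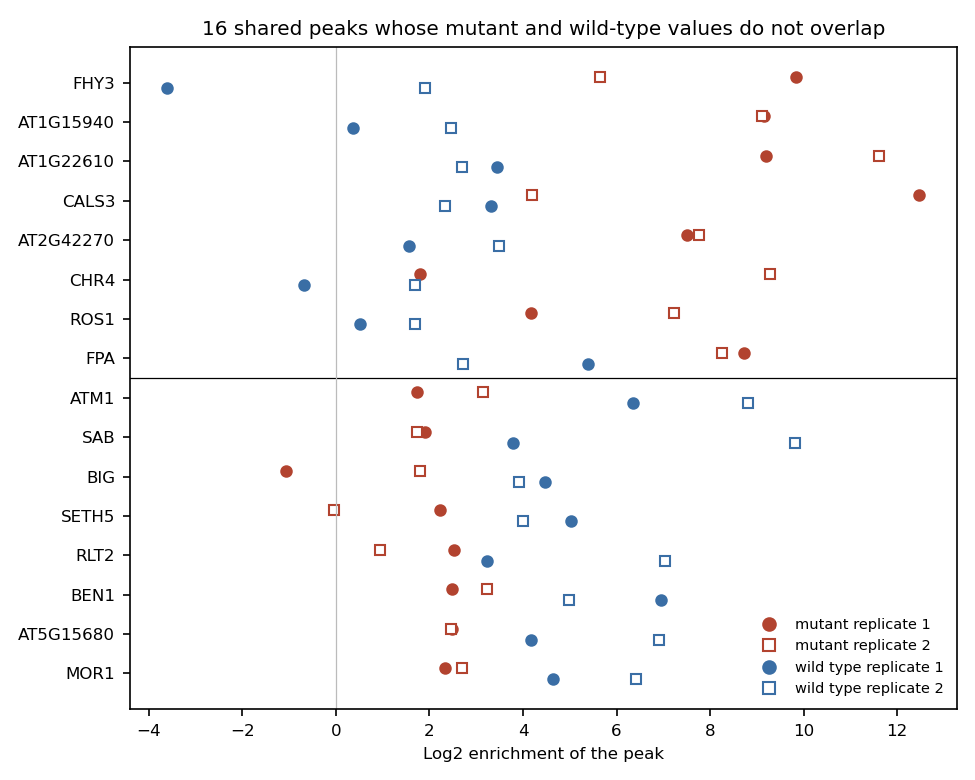
Log2 enrichment in each of the 4 libraries at the 8 pairs with the largest positive and the 8 with the largest negative difference among pairs whose mutant and wild-type values do not overlap, 1 pair per line, with mutant and wild-type replicates by colour and marker. FHY3 reaches 9.84 and 5.65 in the mutant against -3.60 and 1.89 in wild type, and the myosin gene ATM1 has 1.73 and 3.14 in the mutant against 6.35 and 8.81 in wild type.

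The 6 pairs with the highest lowest value were all last peaks. ATRX, with few mutant peaks, had 9.28 and 8.86 in the mutant and 10.52 and 5.01 in wild type at its end. SUS2 (AT1G80070), the PRP8 core protein of the spliceosome, had 6.91 and 4.58 in the mutant and 5.28 and 4.71 in wild type, and RPP5 (AT4G16950), an immune receptor in a cluster of near-identical copies, had 5.51 and 6.93 in the mutant and 4.51 and 5.00 in wild type. The groups overlapped in ATRX and SUS2, and in RPP5 both mutant values were the higher ones. MDN1 (AT1G67120), a giant ATPase of ribosome assembly, had 4.75 and 8.48 in the mutant and 4.17 and 5.96 in wild type, and DEK1 (AT1G55350), a membrane calpain that maintains the epidermis, had 4.16 and 4.03 in the mutant and 4.69 and 4.45 in wild type. AT2G48060 had 14.04 and 4.30 in the mutant and 4.72 and 5.84 in wild type.

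At the other end stood pairs whose 4 values nearly coincided, at levels near or below the library medians over member pairs (2.30 and 1.96 in the mutant, 2.21 and 2.07 in wild type). An inner MOR1 peak had 2.06 and 1.98 in the mutant and 2.12 and 2.10 in wild type, although the last peak of the same transcript was among those with the largest differences. PWD (AT5G26570), an enzyme that phosphorylates starch, had 2.09 and 2.25 in the mutant and 2.18 and 1.94 in wild type. Of the other 4 steadiest pairs, 3 lay in AT1G01320 and 1 in the plastid gene ATCG01130.

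Some of the members were set in groups by what they encode, with each group's list holding other genes of its kind as well. The lists do not hold every gene or every member of a kind, so their counts cover the listed genes only. Genes not counted as annotated were left out. Among them were the members AT2G17930 (PI3K-related kinases), AT2G42270 and AT1G02080 (splicing), and AT3G60860 (vesicle traffic). In 11 lists with 115 annotated genes, 35 of the genes were members. With limma, 0 pairs of any list passed, and the counts at an unadjusted p under 0.05 are given above for all members. Over all pairs, 32.4% were at least 1.5-fold higher in the mutant and 32.1% lower. The lists hold 7 to 41 pairs each, so nothing is read from their higher and lower counts or medians. Of 13 listed chromatin remodelling ATPases, 5 were members: SYD, CHR4, BRM (8 mutant and 6 wild-type peaks), PIE1 (6 mutant and 5 wild-type peaks) and CHR5 (6 mutant and 5 wild-type peaks). These all had more mutant peaks, but the member ATRX, with 2 mutant and 6 wild-type peaks, was not in this list. The 13 genes had 72 mutant and 53 wild-type peaks, and of their 41 pairs 16 were higher and 14 lower, with a median difference of 0.02. BRM (AT2G46020), the second large SWI/SNF ATPase, had 5.10 and 0.96 in the mutant and 4.28 and 2.12 in wild type at its last peak, where the groups overlapped. PIE1 (AT3G12810), which deposits the histone variant H2A.Z, had 7.10 and 5.75 in the mutant and 4.72 and 3.94 in wild type there, where they did not.

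Among 11 genes of histone methyltransferases and DNA methylation, 4 were members, ASHH2, SDG2, ROS1 and DME, with 6 or 7 mutant peaks and 4 to 6 wild-type peaks each. Of the 17 pairs of the list, 10 were higher and 5 lower, with a median difference of 0.80. DME (AT5G04560), a DNA glycosylase known from the central cell, had 3.72 and 5.61 in the mutant and 3.84 and 2.96 in wild type at its last peak. ASHH2 (AT1G77300), which methylates lysine in histone H3, had 1.92 and 4.43 in the mutant and 2.03 and 2.32 in wild type. In both genes 1 mutant value fell below a wild-type value.

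The 4 annotated PI3K-related kinases and partners had 2 members, with 2 higher and 5 lower of 7 pairs and a median difference of -1.03. The member AT2G17930, with 7 mutant and 4 wild-type peaks, was not counted here. TOR (AT1G50030), the central growth kinase, had 6 mutant and 4 wild-type peaks, and its last peak had 2.29 and 9.78 in the mutant and 4.20 and 9.93 in wild type, low in replicate 1 and high in replicate 2 of each genotype. ATM (AT3G48190), the kinase of the response to DNA breaks, had 7 mutant and 4 wild-type peaks, with 3.19 and 4.01 in the mutant and 4.92 and 6.24 in wild type at its last peak, where the groups did not overlap.

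Of 10 HECT and other giant ubiquitin ligases, 5 were members, and the list had 54 mutant and 45 wild-type peaks. Of its 28 pairs, 11 were higher and 9 lower, with a median of 0.39. UPL3 (AT4G38600), which limits trichome branching, had 6 peaks in each list and 4.87 and 8.70 in the mutant against 3.35 and 2.91 in wild type at its last peak. UPL2 had 3.27 and 3.09 in the mutant and 4.20 and 3.06 in wild type there, which overlapped.

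The 11 callose synthases had 5 members, CALS3, GSL10, GSL8, GSL03 and GSL05, whose sequences are alike in part. Of the 22 pairs in the list, 8 were higher and 9 lower, with a median of -0.34. GSL03 (AT2G31960) had 3.35 and 3.13 in the mutant and 4.14 and 3.87 in wild type at its last peak, and GSL10 (AT3G07160) had 4.30 and 3.60 in the mutant and 3.33 and 4.01 in wild type. GSL05 (AT4G03550), the callose synthase of wound and pathogen response, had 0.79 and 11.86 in the mutant and 5.05 and 3.87 in wild type, so its mutant mean depended on replicate 2.

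In splicing, translation and RNA decay, 5 of 11 genes were members, among them ILA, emb1507, SUS2 and UPF1, and 12 of 32 pairs were higher and 11 lower (median 0.09). UPF1 (AT5G47010), the helicase of nonsense-mediated decay, had 3.16 and 1.34 in the mutant against 5.11 and 5.32 in wild type at its last peak, where the groups did not overlap. The last peak of emb1507 (AT1G20960) had 2.06 and 3.35 in the mutant against 4.05 and 4.70 in wild type, and that of ILA had 4.00 and 5.47 in the mutant against 3.30 and 4.21 in wild type. Both mutant values were the lower ones in emb1507, and the groups overlapped in ILA.

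The remaining lists held few members. The large metabolic enzymes had 3 of 12, ACC1, GLT1 and PWD, with 6 of 30 pairs higher and 6 lower (median -0.13), and GLT1 (AT5G53460), a glutamate synthase, had 2.46 and 2.20 in the mutant and 2.58 and 2.07 in wild type at its last peak. The listed ABC transporters had 2 of 11 (ABCC14 and ABCG32), with 8 of 27 pairs higher and 9 lower (median -0.07). In these 2 members alone, 1 of 9 pairs was higher and 6 lower (median -1.04). The member ABCC3, described above, was not in this list. Vesicle traffic and cytoskeleton had 2 of the 12 listed (BEN1 and the myosin gene XIK), with 9 of 28 higher and 4 lower (median 0.23). In BEN1 and XIK alone, 2 of 9 pairs were higher and 2 lower (median -0.40). Members outside this list include the myosin gene ATM1, MOR1, MIP2 and MAG5. Mediator and RNA polymerase subunits had 1 of 12, NRPB1 (AT4G35800), the largest subunit of RNA polymerase II, with 2.41 and 3.44 in the mutant and 5.30 and 4.84 in wild type at its last peak, in a list with 4 of 15 pairs higher and 7 lower (median -0.29). The nuclear pore list had 1 of 8, NUA (AT1G79280), and 3 of its 13 pairs were higher and 7 lower (median -0.68). NUA had 1.16 and 1.78 in the mutant and 4.44 and 2.24 in wild type at its last peak. Of the 7 pairs of NUA itself, 3 were higher and 3 lower (median 0.52).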

How the data were processed

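m6A was measured by antibody pull-down of fragmented poly(A) RNA beside input RNA in seedlings of both genotypes, 2 libraries of each kind per genotype. The genome build TAIR10 and the tools edgeR and TopHat2 2.0.14 are named, without a role, per the submitters' processing notes. Not given in the sources used here are the peak caller, its thresholds, the enrichment formula and the scaling. The authors deposited 1 peak list per genotype with the gene, the borders and, per the file headers, 1 log2 enrichment value per replicate. Positions are bases along the gene model as the authors deposited them; whether introns count is not given. The 2 columns headed R3 match no sample and were not used. Because depth is unknown, no interval that needs it is given.

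Members were all peaks of genes with at least 6 peaks in 1 list. Pairs are peaks of the same gene that overlap by at least 1 base and are each other's largest overlap. The deposited log2 values were compared as they are, without the pseudocount of 1 that was planned for linear values, with limma 3.58.1 in R 4.3.3 (no block, Benjamini-Hochberg over all pairs, threshold 0.05). Pairs were counted as higher or lower where the genotype means were at least 1.5-fold apart. The fit was also run on simulated data, whose outcome is not reported here, so nothing is read from it. Symbols, biotypes and overlaps between genes came from RefSeq's table of TAIR10.1, which held 133 members and gave a name for 95; none of its coordinates are printed. Near-identical gene copies are uncertain.

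The members, gene lists and tests were chosen with earlier results of these data known. Named were the 10 genes with most peaks, 6 genes per direction with the largest difference in number, 8 pairs per direction with the largest difference among those without overlap, 6 pairs with the highest minimum, 6 with the narrowest range, and up to 6 members of each list, some without values and 1 not reported here; last peaks were shown for list members, a choice made after the values were seen. A list of proteins that the table does not annotate was dropped. Alternatives were other limits for membership, joined neighbours, stricter overlap and enrichment, a ratio of 2, centring, gene means, each replicate left out and a replicate block. The comparison of last with other peaks and its alternatives, and those without genes that overlap another gene, were added after seeing the data. Computation used Python 3.11.15, numpy 2.4.6, pandas 2.3.3, scipy 1.17.1 and matplotlib 3.10.9.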

Additional observations from a re-analysis of the deposited data

How the results depend on the processing

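The set depends on how peaks are counted: it held 136 genes, but 329 with at least 5 peaks, 30 with at least 8, 74 with neighbours joined and 23 with peaks at 1 or more in both replicates. With an overlap of at least 50% of the shorter peak, the share with a partner was 48.2% in the mutant, against 56.7%, and 58.8% in wild type, against 69.3%; with peaks at 1 or more in both replicates it was 49.5% in the mutant and 55.0% in wild type. The stricter overlap gave 39.5% for mutant peaks other than the last, against 49.2%, and 95.6% for mutant last peaks, against 97.8%. The 162 pairs higher in the mutant became 106 at a ratio of 2, with 96 lower. Among the 319 pairs of genes that overlap no other gene, 106 were higher (33.2%) and 100 lower (31.3%). Over all pairs, 32.4% were at least 1.5-fold higher and 32.1% lower, and no such share was taken at a ratio of 2. The median difference between replicates was 1.47 in the mutant and 1.26 in wild type among shared peaks. Leaving out 1 library in turn, the median excess of the last peak lay between 0.95 and 1.41 in the mutant (1.35 with both) and between 1.60 and 1.93 in wild type (1.74 with both), higher pairs between 140 and 178, and lower pairs between 136 and 195. With a replicate block, 0 pairs passed with limma, as without it. At an unadjusted p under 0.05 stood 12 member pairs (2.59%, against a background of 4.09%). Deviations of libraries with the same number correlated at 0.01 over all pairs and at 0.07 over member pairs. These values cannot decide whether a shared number marks a shared batch, which the labels do not say. No limma alternative with all 4 libraries gave an adjusted call among the members. At an unadjusted p under 0.05 stood 5 of 135 gene means (3.70%, background 3.84%). With 3 of 4 values at 1 or more, 14 of 382 member pairs did (3.66%, background 4.22%). The smallest adjusted p with limma ran from 0.897 to 0.9999. Fits without 1 library rest on 1 library of a genotype, so their calls are not given. The 16 named pairs without overlap kept their direction in all 96 recalculations, which follows in part from how they were chosen. The causes were not tested. Depth is unknown, and 2 libraries per genotype limit the tests.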
